A study of Fundulus heteroclitus with 15 samples.

Results

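The genes described here were the heat shock proteins, the cytosolic chaperonin and the antioxidant enzymes printed on a custom array for the mummichog (Fundulus heteroclitus), a small estuarine fish. A probe was a member when its name in the array files held one of 10 terms: heat shock, T-complex protein 1, superoxide dismutase, catalase, glutathione peroxidase, peroxiredoxin, thioredoxin, metallothionein, glutathione reductase or heme oxygenase. Names with glucose-regulated or endoplasmin were left out. The terms found 73 probes of the 7157 that the files mark as no control feature. They stood for 50 genes once spelling variants of a name were merged, beside 3699 distinct names on the array. HSC70, HSC71 and HSPA8, names used for the constitutive HSP70, were counted apart. Glutathione reductase matched 0 probes. The rule used names and no levels, although the terms were set with earlier results of these data known.

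RNA came from livers of adult females. In all groups the fish were kept for 14 days in water that carried no EE2 (control), 50 ng/L of EE2 or 250 ng/L of EE2, with 5 arrays in each group. EE2, 17α-ethinylestradiol, is an estrogen made for contraceptive pills. The labels call the 5 samples of a group biological replicates and do not say whether a sample was 1 fish or a pool. They give no replicate numbers either, so the numbers 1 to 5 used below only name arrays, in the order in which they are listed. Each value is a level, the log2 of a probe's processed signal minus the log2 of the same array's 75th percentile. A level serves to compare 1 probe between arrays and not to compare different genes.

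Heat shock proteins of the HSP90 and HSP70 families hold client proteins in a foldable state, the small heat shock proteins bind unfolded chains, and the ring-shaped TCP-1 chaperonin folds actin and tubulin in the cytosol. Superoxide dismutases turn superoxide into hydrogen peroxide, which catalase, the glutathione peroxidases and the peroxiredoxins remove, the last with electrons from thioredoxin and thioredoxin reductase. Metallothioneins bind zinc and copper, and heme oxygenase breaks down heme. The liver of an egg-laying fish answers estrogen by making yolk precursor, a large secreted protein.

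The arrays differed in brightness, and liver markers were high on all 15. The 75th percentile of the signal lay between 542.5 and 3575 units, 75.6% to 91.7% of probes were well above background, and 0 spots were saturated. The 40 tested probes of hepatocyte markers had mean levels of 4.29 to 5.13 over all 15 arrays. Markers of exocrine pancreas, tissue that lies within the liver of many fishes, were present and unequal. Their mean level over 65 probes ranged from -2.39 to 0.69 on control arrays, -0.76 to 1.58 at 50 ng/L and -0.34 to 2.08 at 250 ng/L. The median difference of these pancreas probes was 0.99 for 50 ng/L minus control and 1.06 for 250 ng/L minus control, and 0 of the 65 passed the test in either comparison. In bulk tissue, fewer cells of a type and less RNA per cell cannot be told apart.

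A probe entered the test when at least 5 arrays had it well above background, which 70 of the 73 members met. For 61 of them it held on every one of the 15 arrays. The 3 left out were probes for Hsc70.1, HSP47 and the extracellular superoxide dismutase. They were well above background on 1, 1 and 0 arrays, so the data hold no usable level for those probes. By textbook location, 45 of the 73 probes belong to cytosolic proteins. Another 11 belong to mitochondrial ones, 10 to proteins of the endoplasmic reticulum (ER) or outside the cell, 3 to the peroxisome, 2 to the ER membrane and 2 to the spliceosome in the nucleus. The word cytosolic thus covers 45 of the 73, and the thioredoxin names take in a pair of splicing proteins that only share the thioredoxin fold.

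Most heat shock and antioxidant genes of the female liver gave no difference that passed the test at either dose. For EE2 at 50 ng/L against control, limma called 0 of the 70 members at an adjusted p under 0.05. Among all 6145 tested probes, 0.553% were called. At an unadjusted p under 0.05 there were 2 members, both lower, against 4.1% of all tested probes. For EE2 at 250 ng/L against control, 1 member was called, against 2.7% of all tested probes (2.05% called higher), and 8 members had an unadjusted p under 0.05, of which 3 were higher and 5 lower, against 13.6%. For 250 ng/L against 50 ng/L, 1 member was called, against 1.09%, and 3 members had an unadjusted p under 0.05, against 8.12%. The member called in the last 2 comparisons was the same probe, that of thioredoxin-like protein 4B.

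The size of the differences was small as well. Their median over the 70 members was -0.03 for 50 ng/L minus control and -0.12 for 250 ng/L minus control, beside -0.01 and -0.05 for all tested probes. At 50 ng/L the difference lay within 0.5 log2 units of 0 for 65 members, and at 250 ng/L for 59. The 95% interval of the difference stayed inside a 2-fold change either way for 52 members at 50 ng/L, or 74.3%, beside 65% of all tested probes. At 250 ng/L it did so for 45 members, or 64.3%, beside 55.4%. For these probes a 2-fold change lay outside the interval. For the member called at 250 ng/L minus control, the interval lay wholly above a 2-fold rise at that dose. In all remaining cases the arrays could not show whether a 2-fold change was present. The pooled SD between arrays of a group had a median of 0.458 over the members and 0.473 over all tested probes.

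**Figure D1:**
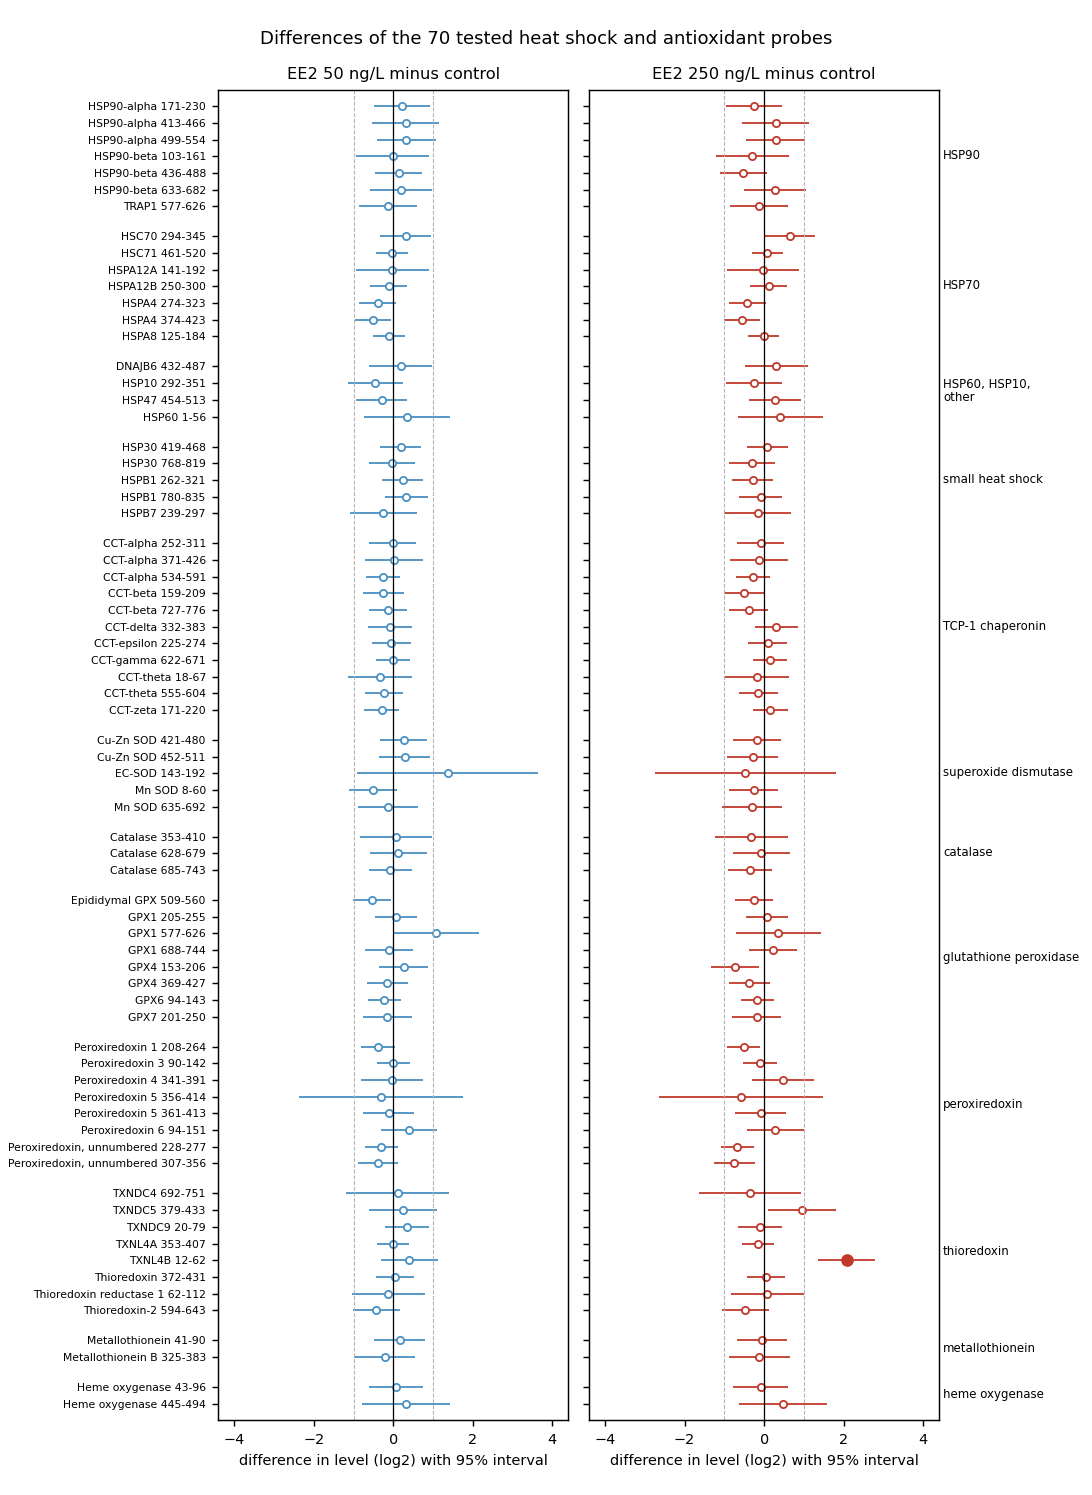
Differences in level (log2, x axis) of the 70 tested member probes (y axis, grouped by role, with the probe's first and last base in its array contig) for EE2 50 ng/L minus control (left) and EE2 250 ng/L minus control (right), with 95% intervals; dashed lines mark a 2-fold change, open circles did not pass the test and the filled circle did. Only TXNL4B at 250 ng/L, at 2.07, is filled, and the widest intervals belong to the extracellular superoxide dismutase and to 1 peroxiredoxin 5 probe.

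Members lay on both sides of 0. Of the 70 members, 41 had a difference below 0 at 50 ng/L and 46 at 250 ng/L, or 58.6% and 65.7%, beside 50.9% and 55.2% of all tested probes. Both comparisons use the same control arrays. Leaving out single arrays gave 30 (without array 2 at 50 ng/L) to 43 members below 0 at 50 ng/L. Without that array the median of the members was 0.08. At 250 ng/L the counts were 39 to 46. With the pancreas marker level as a covariate they were 34 at 50 ng/L and 38 at 250 ng/L. With another background correction, normexp, the median of all probes moved by 0.20 at 50 ng/L and by 0.15 at 250 ng/L. Then 25 and 34 members lay below 0. The member medians with normexp were 0.13 and 0.03, beside 0.19 and 0.10 for all tested probes. Quantile and cyclic loess scaling gave 43 and 36 members below 0 at 50 ng/L, and 48 and 43 at 250 ng/L. The authors' deposited values gave 42 at 50 ng/L and 49 at 250 ng/L. The arrays sat on 2 glass slides, and slide 1 held 2 control, 2 EE2 50 ng/L and 3 EE2 250 ng/L arrays. For 250 ng/L minus control, 36 of the 70 members had a difference of opposite sign on the 2 slides, while 19 were below 0 and 15 above 0 on both. For 50 ng/L minus control, 45 had opposite signs, while 19 were below 0 and 6 above 0 on both. By location, for 250 ng/L minus control, 26 of 44 tested cytosolic members and 10 of 11 mitochondrial ones were below 0 over all arrays. Their medians were -0.09 and -0.26, and 0 passed the test in either place. With normexp the 2 medians for 250 ng/L minus control were 0.05 and -0.12, so the cytosolic one turned its sign. The median of all tested probes was then 0.10. In the same comparison the cytosolic median was -0.12 with quantile scaling, -0.02 with cyclic loess and -0.15 with the authors' deposited values. The 11 mitochondrial probes stand for 8 genes, GPX4 among them. Of these probes, 8 lay below 0 with normexp and 9 with cyclic loess for 250 ng/L minus control.

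**Figure D2:**
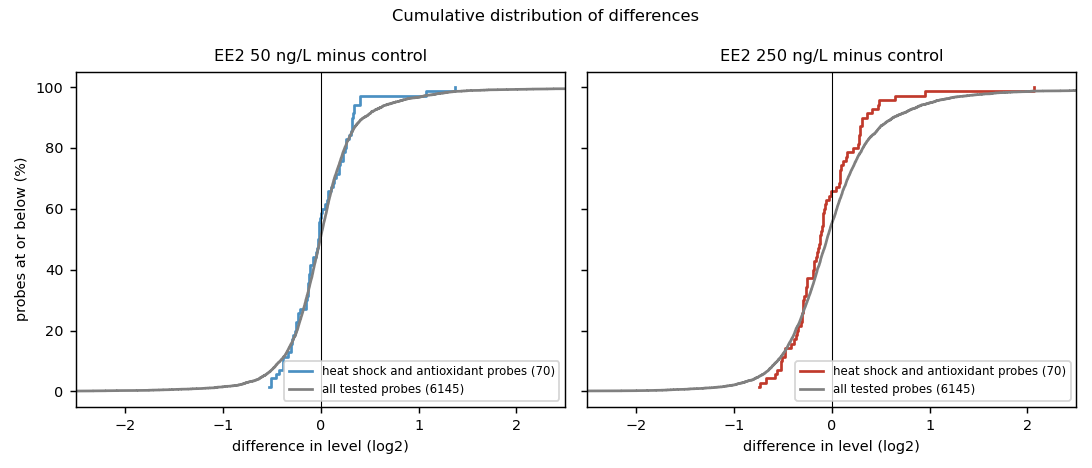
Cumulative share of probes (%, y axis) at or below a given difference in level (log2, x axis, drawn from -2.5 to 2.5) for the 70 tested members (coloured) and all 6145 tested probes (grey), for EE2 50 ng/L minus control (left) and EE2 250 ng/L minus control (right). The curves cross 0 at 58.6% for members and 50.9% for all probes on the left, and at 65.7% and 55.2% on the right.

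Thioredoxin-like protein 4B (TXNL4B), named in the files also as a Dim1-like protein, was the member that rose. In human cells it takes part in pre-messenger RNA splicing, and it is no known antioxidant. Its only member probe covers bases 12 to 62 of its array contig and was well above background on all 15 arrays. The signal was still weak, at -4.16 or lower on every control array. With no second probe to set beside it, the result stands for that probe only. Its levels were -4.81, -4.92, -4.98, -4.16 and -5.17 on the control arrays, -3.65, -4.93, -3.97, -4.56 and -4.91 at 50 ng/L, and -2.65, -2.75, -2.78, -3.70 and -1.79 at 250 ng/L. Every 250 ng/L array was above every control array. Among the 70 members, 4 had groups that did not overlap in this comparison, against 4.41% of all tested probes; 1 lay above, against 2.49%, and 3 below, against 1.92%.

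The rise of TXNL4B at 250 ng/L over control was 2.07 ± 0.339 (log2, standard error of the fit, n = 5 and 5), which is 4.20-fold, with a limma adjusted p of 0.00158 and a 95% interval of 1.35 to 2.79. Against 50 ng/L it was 1.67 ± 0.339, or 3.18-fold, with a limma adjusted p of 0.0242. There the groups overlapped, since array 1 at 50 ng/L, at -3.65, was above array 4 at 250 ng/L, at -3.70. The difference for 50 ng/L minus control was 0.40 with a limma adjusted p of 0.999. Within slide 1 the 250 ng/L minus control value was 2.14 and within slide 2 it was 2.02, with limma adjusted p of 0.116 and 0.213 on these few arrays. With the pancreas marker level as a covariate it was 2.09, with a limma adjusted p of 0.00394. With normexp the 250 ng/L minus control value was smaller, 1.502, with a limma adjusted p of 0.00448. The call thus held, while the size of the rise depended on the background correction. The 4.20-fold value and its 95% interval are those without normexp. The call against 50 ng/L was lost with normexp, where the difference was 0.88 with a limma adjusted p of 0.327, and when any of 6 single arrays was left out.

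TXNL4A, its relative and the Dim1 protein of the spliceosome's U5 particle, averaged -4.57 ± 0.296, -4.59 ± 0.263 and -4.72 ± 0.183 on control, 50 ng/L and 250 ng/L arrays (SD, n = 5 each). Its difference for 250 ng/L minus control was -0.15, with a 95% interval of -0.55 to 0.25, so that a 2-fold change lay outside it. This probe was weak as well, and with normexp its difference lay above 0. The interval thus need not bound a change of the transcript.

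**Figure D3:**
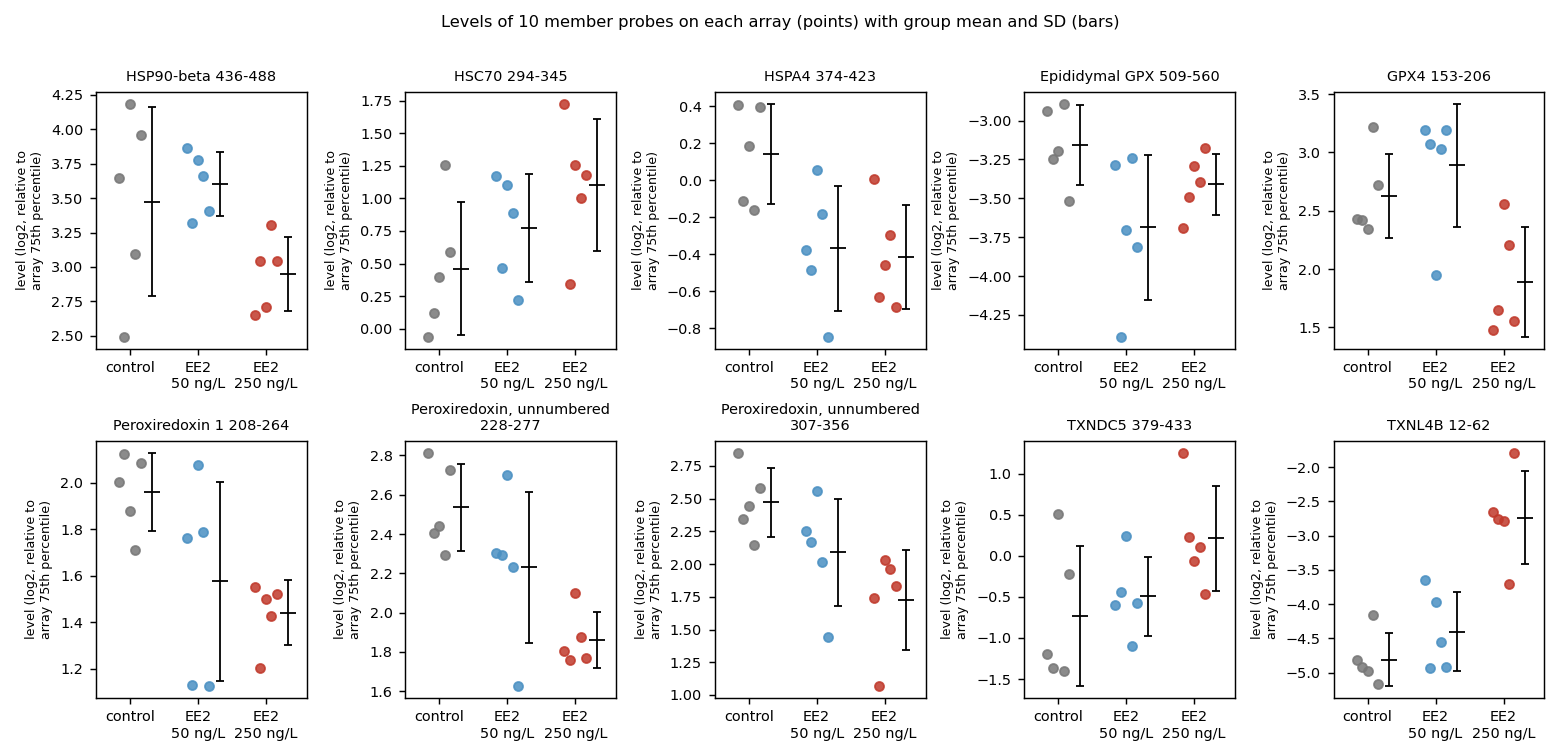
Levels (log2 relative to the array's 75th percentile, y axis, with its own scale in each panel) of the 10 member probes with an unadjusted p under 0.05 in any comparison, on each array (points), with group mean and SD (bars, n = 5 each), for control, EE2 50 ng/L and EE2 250 ng/L. TXNL4B lies between -3.70 and -1.79 at 250 ng/L, above all control arrays, while both unnumbered peroxiredoxin probes and peroxiredoxin 1 lie below all control arrays at 250 ng/L.

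Peroxiredoxins, the thiol enzymes that reduce hydrogen peroxide and lipid peroxides, held the largest difference below 0 among the members for 250 ng/L minus control. Of their 8 probes 0 passed the test in any comparison. At 250 ng/L minus control, 6 of the 8 lay below 0 (5 with cyclic loess), with a median of -0.31, and 3 had groups that did not overlap, all lower, where 1.92% of all tested probes did. These 3 were both probes of a peroxiredoxin that the files name without a number and the probe of peroxiredoxin 1, a cytosolic enzyme. The first 2 lie on 1 contig and are not independent measurements of a gene.

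The unnumbered peroxiredoxin probe at bases 228 to 277 had levels of 2.81, 2.41, 2.44, 2.29 and 2.72 on the control arrays, 2.30, 2.29, 2.70, 2.23 and 1.63 at 50 ng/L, and 1.80, 1.76, 2.10, 1.88 and 1.77 at 250 ng/L. The highest array at 250 ng/L was below the lowest control array, and the 50 ng/L arrays spanned both groups. The difference for 250 ng/L minus control was -0.67 ± 0.196, or 1.60-fold lower, with a limma adjusted p of 0.0958 and a 95% interval of -1.09 to -0.26. On the values of the authors' deposited table the same fit gave -0.72 with a limma adjusted p of 0.0472, which passed. Its partner at bases 307 to 356 differed by -0.75 ± 0.237, with a limma adjusted p of 0.141.

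Peroxiredoxin 1 had levels of 2.0, 2.12, 1.88, 1.71 and 2.08 on the control arrays, 1.76, 1.13, 2.08, 1.79 and 1.13 at 50 ng/L, and 1.55, 1.20, 1.5, 1.43 and 1.52 at 250 ng/L. All 250 ng/L arrays were below all control arrays, and the 50 ng/L arrays split into 3 near the controls and 2 below every 250 ng/L array. Its difference for 250 ng/L minus control was -0.52 ± 0.199, or 1.43-fold lower, with a limma adjusted p of 0.258. With the pancreas marker level as a covariate it was -0.40. On slides 1 and 2 it was -0.64 and -0.42. The 228 to 277 probe of the unnumbered peroxiredoxin differed by -0.72 and -0.66 on slides 1 and 2.

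Among the other peroxiredoxins, the control and 250 ng/L groups overlapped. Mitochondrial peroxiredoxin 3 averaged 0.97, 0.97 and 0.87 on control, 50 ng/L and 250 ng/L arrays. Peroxiredoxin 6, the 1-cysteine enzyme that also acts on phospholipids, had means of 1.77, 2.16 and 2.05, a difference of 0.28 for 250 ng/L minus control. Peroxiredoxin 4, which works in the ER, had a difference of 0.48 with a 95% interval of -0.30 to 1.27. Peroxiredoxin 5 had a pair of probes on different contigs. One varied by 4.62 log2 units over the 15 arrays, with a pooled SD of 1.70 between arrays of a group. Its difference for 250 ng/L minus control ranged from -1.36 to -0.13 when single arrays were left out, and it did not pass the test. The other probe had means of -1.75, -1.86 and -1.83.

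Of the thioredoxin system itself, 0 probes passed the test. Thioredoxin, the small cytosolic reductant, had means of 2.61 ± 0.327, 2.65 ± 0.435 and 2.65 ± 0.224 on control, 50 ng/L and 250 ng/L arrays (SD, n = 5 each). Its 95% interval for 250 ng/L minus control was -0.44 to 0.53. Thioredoxin reductase 1, which recharges it, differed by 0.07, and mitochondrial thioredoxin-2 by -0.48 with a limma adjusted p of 0.509. TXNDC9, a cytosolic protein that binds the TCP-1 chaperonin, differed by -0.11.

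A pair of ER proteins with thioredoxin domains had differences of opposite sign and neither passed the test. TXNDC5 (ERp46), a disulfide exchange enzyme of the ER, had levels of -1.19, -1.37, 0.51, -1.41 and -0.22 on the control arrays, -0.60, -0.44, 0.24, -1.10 and -0.58 at 50 ng/L, and 1.25, 0.23, -0.06, 0.10 and -0.46 at 250 ng/L. Control array 3 lay above 4 of the 5 arrays at 250 ng/L, so the groups overlapped. The difference for 250 ng/L minus control was 0.95 ± 0.400, with a limma adjusted p of 0.308, and it was 1.75 within slide 1 and 0.19 within slide 2. TXNDC4 (ERp44), which retains clients in the early secretory pathway, differed by -0.35 with a 95% interval of -1.63 to 0.94.

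Among the glutathione peroxidases, which use glutathione to reduce peroxides, 0 of 8 probes passed. GPX4, which repairs peroxidised phospholipids in membranes, gave their largest difference for 250 ng/L minus 50 ng/L. Its probe at bases 153 to 206 had levels of 2.43, 2.42, 2.35, 3.21 and 2.73 on the control arrays, 3.20, 3.07, 1.95, 3.03 and 3.19 at 50 ng/L, and 1.48, 1.65, 2.56, 2.21 and 1.55 at 250 ng/L. At 50 ng/L, 4 arrays were above all 250 ng/L arrays and array 3 was among them. The difference for 250 ng/L minus 50 ng/L was -0.999 ± 0.287, with a limma adjusted p of 0.186. Without array 3 at 50 ng/L it was -1.23 with a limma adjusted p of 0.0271. A second GPX4 probe, at bases 369 to 427 of another contig, differed by -0.22 in that comparison and by -0.37 for 250 ng/L minus control, where the first probe differed by -0.74.

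Cellular glutathione peroxidase, GPX1, was read by 3 probes that did not follow each other. For 50 ng/L minus control they differed by 0.08, 1.08 and -0.11. The middle value, from the probe at bases 577 to 626, had a standard error of 0.506 and a limma adjusted p of 0.999. The secreted epididymal-type enzyme was 1 of the 2 members with an unadjusted p under 0.05 at 50 ng/L, with a difference of -0.53 ± 0.222 and a limma adjusted p of 0.999. GPX6 and GPX7 differed by -0.18 and -0.19 for 250 ng/L minus control.

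Superoxide dismutases and catalase gave 0 calls among their 5 and 3 tested probes. At 250 ng/L minus control all 5 and all 3 differences lay below 0, with medians of -0.29 and -0.32, beside 55.2% of all tested probes below 0. The dismutase probes stand for 3 genes and the catalase probes for 1, so genes are counted more than once. With normexp 4 of 5 dismutase probes lay below 0, and with cyclic loess 2 of 3 catalase probes. With the slide added to the fit, the catalase probe at bases 628 to 679 differed by 0.04. The cytosolic copper-zinc enzyme was read by a pair of probes that agreed closely, with an SD of 0.116 for their difference over the 15 arrays, below the 0.457 and 0.515 of each probe. Their differences for 250 ng/L minus control were -0.19 and -0.29, and the second was -0.90 within slide 1 and 0.29 within slide 2. Mitochondrial manganese superoxide dismutase differed by -0.26 and -0.31 on its 2 probes. The extracellular enzyme had the widest spread of all members, with levels between -7.19 and -3.15 on control arrays, -7.86 and -2.03 at 50 ng/L, and -6.76 and -4.26 at 250 ng/L. Its standard error was 1.07, and no group stood apart. Some of its readings were very dim, since -7.86 lies below -6.71, the lowest mean level of any tested member. Of the 5 tested dismutase probes, 3 were well above background on every array.

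Catalase is the peroxisomal enzyme that splits hydrogen peroxide, and its control arrays differed between the slides. At its probe at bases 353 to 410 the control arrays read -0.08 and 0.52 on slide 1 and 2.31, 2.36 and 2.09 on slide 2. The EE2 arrays lay between 1.04 and 1.79 at 50 ng/L and between 0.52 and 1.60 at 250 ng/L. The difference for 250 ng/L minus control was 0.81 on slide 1 and -1.0 on slide 2, and -0.32 over both with a limma adjusted p of 0.814. The probe at bases 628 to 679 gave 0.82 and -0.64 on slides 1 and 2, and the third, at bases 685 to 743, gave 0.06 and -0.60.

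**Figure D4:**
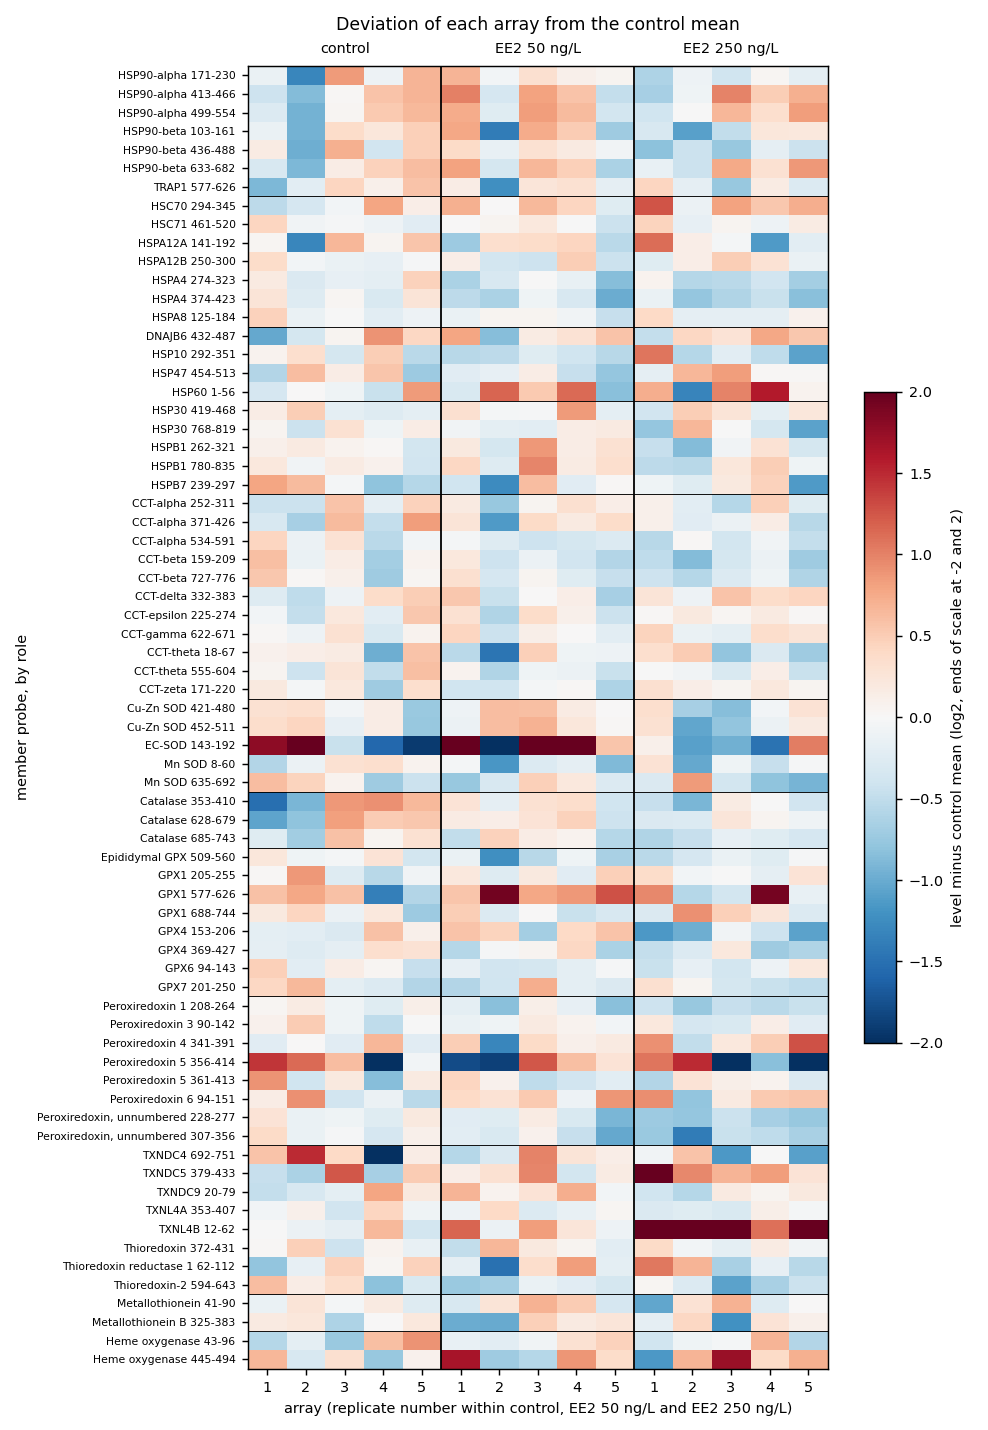
Level of each tested member probe (rows, grouped by role) on each of the 15 arrays (columns, control, EE2 50 ng/L and EE2 250 ng/L, replicates 1 to 5) minus that probe's control mean (log2, colour, with the ends of the scale at -2 and 2). The TXNL4B row is red across the 250 ng/L block, the peroxiredoxin 1 and unnumbered peroxiredoxin rows are pale blue there, and most other rows vary as much between arrays of a group as between groups.

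The heme oxygenase and metallothionein probes did not separate the groups. The heme oxygenase probe at bases 445 to 494 ranged from 1.73 to 3.15 on control arrays, 1.76 to 4.14 at 50 ng/L and 1.32 to 4.20 at 250 ng/L, a difference of 0.47 ± 0.518 for 250 ng/L minus control. The second heme oxygenase probe differed by -0.09. Metallothionein averaged 3.98 ± 0.216, 4.14 ± 0.469 and 3.93 ± 0.652 on control, 50 ng/L and 250 ng/L arrays (SD, n = 5 each), and metallothionein B differed by -0.12 for 250 ng/L minus control. For 250 ng/L minus control the 95% intervals of both metallothionein probes lay within a 2-fold change. Only 1 of these 2 probes was well above background on every array. Metallothionein B was dim, with a lowest control level of -6.53, so its interval describes a weak signal and need not bound a change of the transcript.

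In the HSP90 family 0 of 7 probes passed. The inducible HSP90-alpha had 3 probes with differences of -0.26, 0.29 and 0.29 for 250 ng/L minus control, and the constitutive HSP90-beta had 3 with -0.30, -0.52 and 0.27. The mitochondrial member TRAP1 differed by -0.13. The HSP90-beta probe at bases 436 to 488 had levels of 3.65, 2.49, 4.19, 3.09 and 3.96 on the control arrays, 3.86, 3.32, 3.77, 3.66 and 3.41 at 50 ng/L, and 2.65, 3.05, 2.71, 3.30 and 3.04 at 250 ng/L. All 250 ng/L arrays were below all 50 ng/L arrays, and the control arrays spanned both. Its difference for 250 ng/L minus 50 ng/L was -0.65 ± 0.280, with a limma adjusted p of 0.557. It was 1 of 2 members with groups that did not overlap there, against 2.93% of all tested probes, and the other was the zeta subunit of the TCP-1 chaperonin at 0.44. For 50 ng/L against control 0 members had groups apart, against 1.2%.

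In the HSP70 family 0 of 7 tested probes passed. HSC71, the constitutive form, averaged 5.33 ± 0.248, 5.30 ± 0.240 and 5.41 ± 0.241 on control, 50 ng/L and 250 ng/L arrays (SD, n = 5 each), and the probe named HSPA8, another of its names, averaged 4.99, 4.88 and 4.98. Their 95% intervals for 250 ng/L minus control were -0.31 to 0.47 and -0.41 to 0.38. Close relatives of this family can share sequence, and cross-hybridisation between their probes was not tested.

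HSPA4, a nucleotide exchange factor for HSP70, lay lower at both doses without passing the test. Its probe at bases 374 to 423 had levels of 0.41, -0.11, 0.19, -0.16 and 0.40 on the control arrays, -0.38, -0.49, 0.06, -0.19 and -0.85 at 50 ng/L, and 0.01, -0.63, -0.46, -0.30 and -0.69 at 250 ng/L. At each dose 4 of the 5 EE2 arrays were below all control arrays. The differences from control were -0.51 ± 0.209 at 50 ng/L and -0.56 ± 0.209 at 250 ng/L, with limma adjusted p of 0.999 and 0.242. A second probe on the same contig differed by -0.39 and -0.42.

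A probe named HSC70, also a name used for the constitutive form, lay above 0 in its difference, unlike the flat HSC71 and HSPA8 probes. Its levels were -0.06, 0.12, 0.40, 1.26 and 0.59 on the control arrays, 1.17, 0.47, 1.1, 0.89 and 0.22 at 50 ng/L, and 1.73, 0.34, 1.26, 1.0 and 1.18 at 250 ng/L. Control array 4 was above arrays 2, 4 and 5 at 250 ng/L, so the groups overlapped. The difference for 250 ng/L minus control was 0.64 ± 0.297, with a limma adjusted p of 0.359, and it was 1.08 within slide 1 and 0.34 within slide 2. HSPA12A and HSPA12B, distant HSP70 relatives, differed by -0.03 and 0.11.

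The small heat shock proteins gave 0 calls among 5 probes. HSPB1 (HSP27), which guards actin and unfolded chains, had a pair of probes that followed each other, with an SD of 0.148 for their difference. They differed by 0.23 and 0.33 for 50 ng/L minus control and by -0.29 and -0.09 for 250 ng/L minus control. HSP30 differed by 0.08 and -0.31 on its 2 probes at 250 ng/L, and HSPB7, a heart and muscle form in mammals, by -0.16. Mitochondrial HSP60 and its partner HSP10 differed by 0.41 and -0.26, the collagen chaperone HSP47 by 0.27 and the co-chaperone DNAJB6 by 0.31, all for 250 ng/L minus control and none passing the test.

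The TCP-1 chaperonin had small differences. Its 11 probes cover 7 of the complex's subunits, 0 passed the test, and the 95% interval stayed within a 2-fold change for 10 of the 11 at each dose. Differences for 250 ng/L minus control ranged from -0.51 to 0.31, with 7 of 11 below 0. At 50 ng/L minus control 10 of the 11 lay below 0, beside 50.9% of all tested probes. The 11 differences ran from -0.34 to 0.01, with a median of -0.13. With normexp or cyclic loess 8 of the 11 lay below 0. Probes of the same subunit count more than once here. Array 2 at 50 ng/L stood apart as lowest for the alpha subunit at bases 252 to 311 and 371 to 426. For 250 ng/L minus control the beta subunit lay furthest from 0, at -0.51 ± 0.241 with a limma adjusted p of 0.374 at bases 159 to 209. Its second probe followed it with an SD of 0.0966 for their difference, and differed by -0.39 in the same comparison.

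Agreement between probes of the same gene varied. Pairs were formed within a name, so the probes named HSC70, HSC71 and HSPA8 were not paired. Of 26 pairs of probes from 16 genes, 11 differed from each other by less, in SD over the 15 arrays, than either probe varied on its own. Besides those named, HSP90-alpha at bases 413 to 466 and 499 to 554 and HSPA4 were such pairs. The pairs of GPX4, GPX1, manganese superoxide dismutase, heme oxygenase, peroxiredoxin 5, HSP30 and the chaperonin's theta subunit were not, so a result from 1 probe of those genes stands for that probe only. This also holds for the HSP90-beta probe at bases 436 to 488. Its SD was 0.506, against 0.556 and 0.629 for its differences from the other HSP90-beta probes. HSP90-alpha, catalase and the chaperonin's alpha subunit had pairs of either kind.

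Among 4 lists of genes that work beside the members, 1 held a call. At 250 ng/L minus control, 0 of 23 tested co-chaperone probes passed, with a median difference of -0.02, as did 0 of 36 probes for glutathione, NADPH and ferritin genes, with a median of 0.01, and 0 of 51 proteasome probes, with a median of 0.13. Of 10 probes for folding helpers of the ER (glucose-regulated proteins, calreticulin, calnexin and protein disulfide isomerases), 10 lay above 0, with a median of 1.01, and 1 passed, where 2.05% of all tested probes were called higher. That probe was protein disulfide-isomerase A4 at 2.01, with a limma adjusted p of 0.0454. The mean level of the ER probes ranged from -1.04 to 1.11 on control arrays and from 0.27 to 1.06 at 250 ng/L. The value of 1.11 came from control array 4, where TXNDC5 was lowest among the controls, at -1.41. Of the 8 tested members that work in the ER or outside the cell, 3 lay above 0, with a median of -0.18, and 5 did with normexp, with a median of 0.10. Any difference between these lists and the members was not tested.

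**Figure D5:**
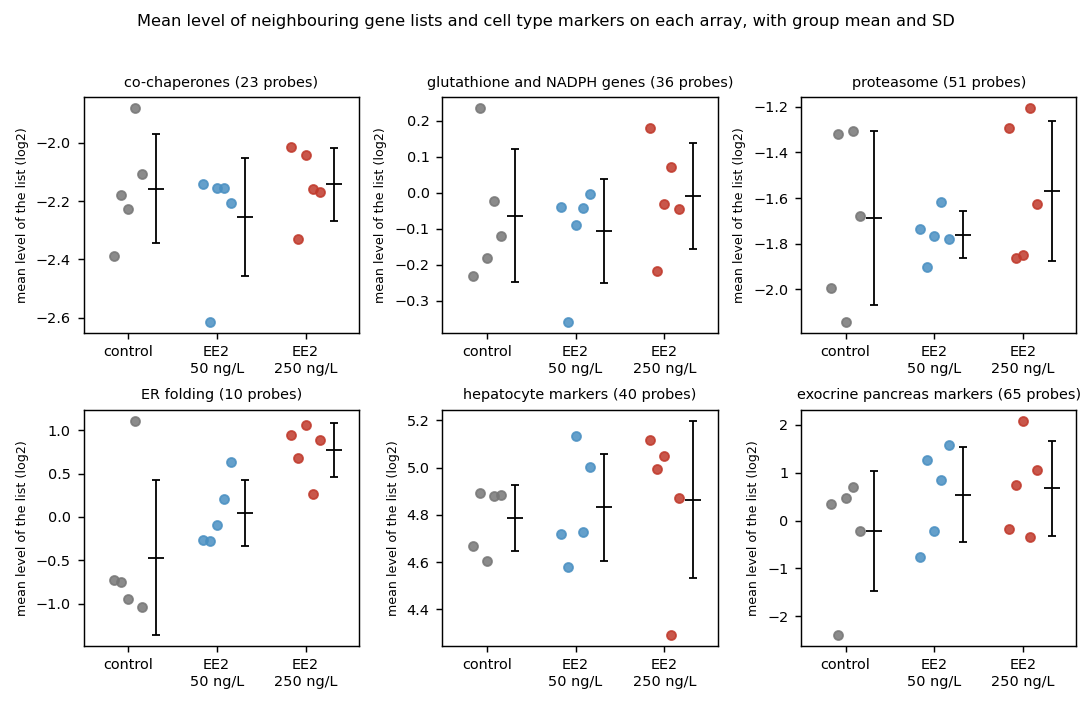
Mean level (log2, y axis, own scale per panel) of 4 neighbouring gene lists and 2 sets of cell type markers on each of the 15 arrays (points), with group mean and SD (bars), for control, EE2 50 ng/L and EE2 250 ng/L. Co-chaperone, glutathione and proteasome means overlap between the groups, the ER folding list reaches 0.27 to 1.06 at 250 ng/L with 1 control array as high, and pancreas markers range most widely within each group.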

How the data were processed

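Total RNA of 15 liver samples was labelled with Cy3 and hybridised to 1-colour Agilent arrays. Intensity values per spot were made by Feature Extraction 10.7.1.1, per the file headers, which do not list the steps behind the processed signal. A log2 value table, deposited by the authors with scale and normalization not stated, correlated with the log2 signals and was used as an alternative. Spots of a probe (2) were averaged after removing flagged ones. Tests used limma 3.58.1 in R 4.3.3 with 1 mean per group over 15 arrays (12 residual degrees of freedom) and Benjamini-Hochberg adjustment over the 6145 probes well above background on at least 5 arrays. The call threshold was 0.05. With 5 arrays a group, their number limits the precision. The members and lists were chosen with earlier results of these data known. Probes named are those called, those of smallest p (12, 6 and 4 for the 3 comparisons) and the brightest of up to 4 names per role; a few others are given for completeness, chosen after their values were seen. The fit was tested on simulated data. Probe positions are bases of the array design's contigs, and genome positions and sequences are not used here. The 5 custom control probes stayed out.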

Additional observations from a re-analysis of the deposited data

Results flagged for a closer look

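In 6 of the 132 groups of 5 arrays examined for the named probes, 1 array stood apart from the other 4 by more than Dixon's test allows at the 95% level. Over all 70 tested members it was 9 of 210, and chance flags about 1 in 20 groups. GPX4 at bases 153 to 206 had its lowest 50 ng/L value, 1.95, on array 3, with the nearest at 3.03, and the comparison of 250 ng/L with 50 ng/L passed the test without that array (-1.23, limma adjusted p of 0.0271). Peroxiredoxin 4 stood out on 2 arrays, with a lowest value of 0.13 on array 2 at 50 ng/L, where the nearest was 1.55, and a highest value of 2.10 on control array 4, where the nearest was 1.45. The HSPB1 probe at bases 262 to 321 was lowest on control array 5, at 1.89 beside 2.28. Metallothionein B was lowest on control array 3, at -6.53 beside -5.91. The HSPA8 probe was highest on control array 1, at 5.45 beside 4.98. These 6 values of named probes lie on 6 different arrays. Among all tested members, array 2 at 50 ng/L was also flagged as lowest for the TCP-1 alpha subunit, at bases 252 to 311 and 371 to 426. On that array the members lay on average -0.32 from their mean over all arrays, the lowest of any array. Control array 1 was flagged again, as highest for HSPA12B. No cause was tested.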

How the results depend on the processing

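No paired analysis was possible because the labels give no replicate numbers. Of 5853 values of the 70 tested members under the alternatives, 5838 kept their side of the threshold and direction of call. Another 13 lost a call, 2 gained one and 0 reversed, and 489 uncalled values changed sign. For 250 ng/L against control the count of called members was 1 throughout, except 2 with the authors' deposited values and 0 within slide 1 and within slide 2, where TXNL4B was 2.14 and 2.02; leaving out single arrays gave 1 to 1 members and 122 to 191 probes. For 250 ng/L against 50 ng/L it was 0 with normexp, within each slide, with only the 2 groups compared and without control array 2 and 250 ng/L array 3 together (TXNL4B 0.88, 1.56, 1.74, 1.67 and 1.68, with limma adjusted p of 0.327, 0.472, 0.428, 0.0754 and 0.0643). Leaving out single arrays gave 0 to 2 members there: 0 without arrays 2, 4 or 5 at 50 ng/L or 1, 2 or 5 at 250 ng/L, and 2 without array 3 at 50 ng/L, and TXNL4B ranged from 1.43 to 1.91 over all 15. For 50 ng/L against control it was 0 in every alternative run. Over all tested probes, 50 ng/L against control gave 34 calls, 3 within slide 1, 20 with array brightness as a covariate and 22 (without control array 3) to 36 without single arrays. At 250 ng/L against control there were 166, with 42 within slide 1 and 109 within slide 2. For 250 ng/L against 50 ng/L there were 67, with 44 under normexp, 0 within each slide and 34 (without array 5 at 50 ng/L) to 66 without single arrays, including 44, 41 and 39 without array 2 at 50 ng/L and arrays 1 and 2 at 250 ng/L. Fewer arrays entered the within-slide and single-array fits; for the others the cause was not tested.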
